A study of Mus musculus with 23 samples.

Results

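The genes described here encode the extracellular side of Nodal and activin signalling: the ligands Nodal, Gdf3 and Gdf1, the activin subunits Inhba and Inhbb, the co-receptor Tdgf1, the convertases Furin and Pcsk6 and the activin-binding protein Fst. They were taken by symbol from an RNA-seq table of FPKM values (fragment counts normalised to gene length and sequencing depth). All 9 symbols were found, each in 1 row, among 29032 symbols. The series studied how Nodal signalling acts through TRIM33, which reads histone marks and partners SMAD2 and SMAD3, on mesendodermal genes of mouse embryonic stem cells (ESCs).

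The 10 RNA-seq libraries of the series, which holds 23 samples, formed 5 groups of 2. In 4 groups RNA came from embryoid bodies (EBs), suspended clumps of differentiating ESCs, kept without leukaemia inhibitory factor until day 2.5. They were WT or Trim33 null, called Trim33Mut in the column names, in a C57BL/6J background, and were given activin A at 50 ng/ml for 2 h or SB431542. Activin A is a dimer of the subunit that Inhba encodes, and SB431542 blocks the kinase of the type I receptors used by Nodal and activin. The labels give SB431542 at 10 micromolar in one field and 10 millimolar in another, and its duration as 1 h (protocol) or 2 h (titles). The fifth group was E14 ESCs kept with leukaemia inhibitory factor and given activin at the same dose. LKO stands in the ESC titles, but wild type in their characteristics and columns, which were followed. All groups were in medium with 15% serum, and no untreated group was sequenced. The labels do not say whether a group's libraries came from separate cultures, or whether the Trim33-null lines were separate clones.

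Nodal is made as a precursor that convertases such as Furin and Pcsk6 cleave. The mature ligand binds activin receptors together with the co-receptor Cripto, the product of Tdgf1, and activates SMAD2 and SMAD3. Gdf1 and Gdf3, relatives of frog Vg1, act in the same Cripto-dependent branch, and Gdf1 forms dimers with Nodal. Activins use the same receptors without Cripto and are held inactive by follistatin, the product of Fst. The pathway maintains Nodal and Tdgf1 expression in the epiblast and induces its own secreted inhibitors, Lefty1 and Lefty2.

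The upstream sequences of 3 members are shown because Nodal and Tdgf1 were the members whose levels separated the treatments in both genotypes, while those of Furin lay close together. Gdf3, Furin and Fst separated the treatments in WT EBs only. The share of all genes that separated in this way was not counted. Each is the 250 bases before the start in RefSeq (GRCm38.p6, whereas the table was made on mm9), written in the direction of the gene, with matches to the SMAD box CAGAC on either strand in capitals. The windows are chr10:61417722-61417971 on the plus strand for Nodal, chr9:110946159-110946408 on the minus strand for Tdgf1 and, for the more upstream of 2 Furin starts in the table, chr7:80405437-80405686 on the minus strand.
Nodal: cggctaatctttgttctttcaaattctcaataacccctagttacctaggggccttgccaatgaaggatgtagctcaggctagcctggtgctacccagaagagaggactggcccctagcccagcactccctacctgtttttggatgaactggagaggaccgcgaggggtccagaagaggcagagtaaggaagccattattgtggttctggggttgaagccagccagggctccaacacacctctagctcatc
Tdgf1: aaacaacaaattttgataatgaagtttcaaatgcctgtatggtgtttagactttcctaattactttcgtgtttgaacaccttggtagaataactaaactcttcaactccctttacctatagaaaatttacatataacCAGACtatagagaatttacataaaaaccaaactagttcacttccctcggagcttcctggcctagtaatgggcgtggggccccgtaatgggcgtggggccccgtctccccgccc
Furin: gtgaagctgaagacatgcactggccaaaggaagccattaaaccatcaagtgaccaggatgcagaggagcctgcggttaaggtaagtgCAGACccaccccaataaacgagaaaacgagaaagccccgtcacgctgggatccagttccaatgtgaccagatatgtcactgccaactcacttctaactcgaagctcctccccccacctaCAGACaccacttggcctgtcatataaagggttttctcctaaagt
The SMAD box was matched 0 times in the Nodal window, 1 time in the Tdgf1 window and 2 times in the Furin window. It is present in 42.2% of all 32851 such windows. The core AATCCAC of the motif of FOXH1, the SMAD partner of the epiblast, was in none of these 3 windows and in 2.1% of all. The G and C content was 53.2% for Nodal, 42% for Tdgf1 and 50.4% for Furin, against a median of 52.4% over all windows. The window of the downstream Furin start, not shown, had 1 SMAD box match and a G and C content of 83.2%. The letters describe these windows only and say nothing on binding.

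Trim33 lay between 10.1 and 11.4 FPKM in the 4 WT EB libraries and between 2.23 and 2.83 in the 4 Trim33-null EB libraries, so the genotype labels held, although gene-level values leave the exons read unknown. Estimated relative depth ran from 1 to 3.89, lowest in ESCs. Pluripotent markers summed to 303 to 418 FPKM in the EB groups and 731 to 750 in ESCs, and primed epiblast markers to 294 to 302 in WT EBs, 115 to 186 in Trim33-null EBs and 106 to 118 in ESCs. Of the 9 extraembryonic endoderm markers, 0 reached a group mean of 1 FPKM. In bulk libraries, fewer cells of a type and less RNA per cell cannot be told apart. Differences were tested with limma on log2(FPKM + 1), which understates the change of low genes, in a fit of the 8 EB libraries or, against ESCs, of all 10, with Benjamini-Hochberg adjustment over all genes tested and a threshold of 0.05. With 2 libraries a group, the smallest two-sided p of an exact permutation test is 0.33, so the tests borrow their spread from the other groups and genes, and measure a spread between libraries that may be technical. Of the 9 members, 7 reached 1 FPKM in at least 2 libraries and were tested.

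**Figure D1:**
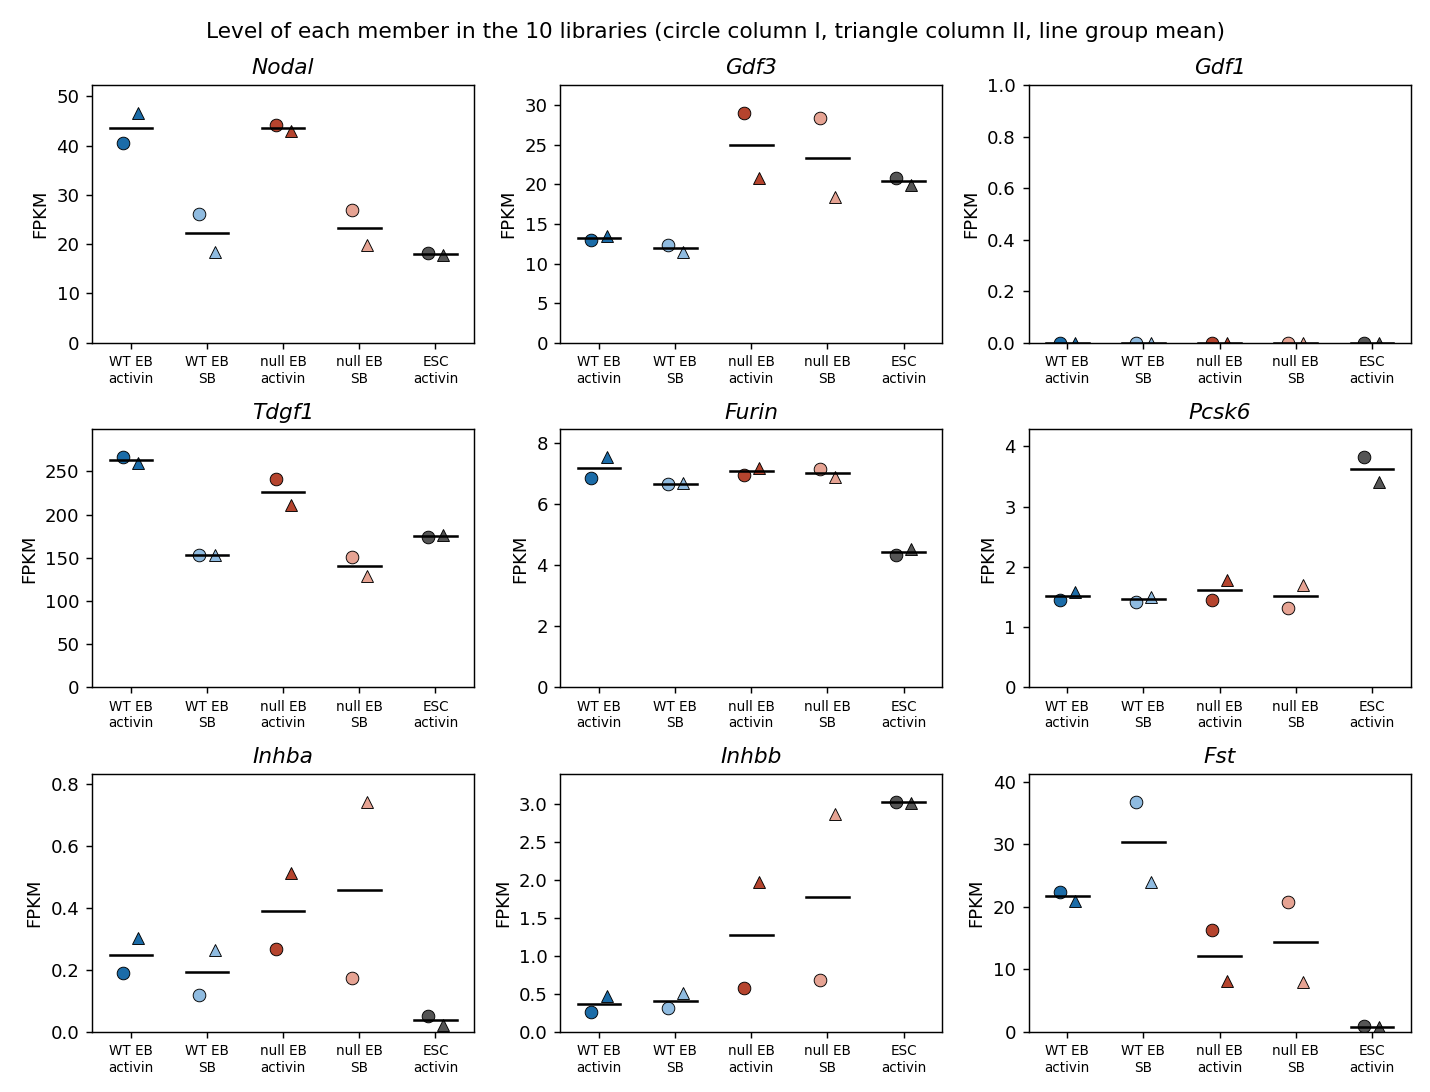
FPKM of the 9 members (vertical axes, each from 0) in the 5 groups; circles are column I, triangles column II, and lines group means. Nodal and Tdgf1 stood higher with activin than with SB431542 in both genotypes, Gdf3 stood higher in both Trim33-null groups than in WT, Fst was near 0 in ESCs, and Gdf1 was listed at 0 throughout.

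Nodal, the principal ligand, stood about as high in Trim33-null as in WT EBs and was higher with activin than with SB431542 in both. It read 40.6 and 46.7 FPKM in WT libraries I and II with activin and 26.1 and 18.4 with SB431542. In Trim33-null EBs it read 44.2 and 43.0 FPKM with activin and 26.8 and 19.8 with SB431542. The ESC libraries, also given activin, read 18.2 and 17.7 FPKM, the lowest of all 10. The activin libraries lay above the SB431542 libraries without overlap in each genotype, and the genotypes overlapped within each treatment.

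In order, the group means of Nodal were 43.7 ± 4.3 FPKM in WT activin, 43.6 ± 0.84 in Trim33-null activin, 23.4 ± 5.0 in Trim33-null SB431542, 22.3 ± 5.4 in WT SB431542 and 17.9 ± 0.32 in ESCs (SD, n = 2). The first pair and the lower 3 groups did not differ from their neighbours beyond these spreads. Means with activin were 1.96 times those with SB431542 in WT EBs and 1.87 times in Trim33-null EBs. The log2 difference was 0.96 ± 0.20 (SE) in WT, with a 95% interval from 0.48 to 1.43, and 0.89 ± 0.20 in Trim33-null EBs. Neither passed after adjustment over all genes (limma adjusted p = 0.383 and 0.62), and adjusted p ran from 0.0895 to 1 over the alternatives in WT.

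Tdgf1, the Nodal co-receptor gene, was the most abundant member in every library. It read 267 and 260.0 FPKM in WT activin I and II against 153 in both WT SB431542 libraries. In Trim33-null EBs it read 241 and 211 FPKM with activin and 151 and 129 with SB431542. The treatments did not overlap in either genotype, and both Trim33-null libraries lay below both WT libraries within each treatment. ESCs read 175 and 177 FPKM, between the activin and the SB431542 groups of EBs.

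The log2 difference of Tdgf1 between activin and SB431542 was 0.78 ± 0.10 (SE) in WT EBs, a ratio of means of 1.72 (limma adjusted p = 0.0668). It was 0.69 ± 0.10 in Trim33-null EBs, a ratio of 1.62 (adjusted p = 0.148). A fit to the 4 WT libraries alone gave the same difference with an adjusted p of 0.0114 (limma), so the WT call turned on which libraries shared the spread. With a replicate block by column numeral, a pairing that no label states, Tdgf1 passed in both genotypes (limma adjusted p = 0.00119 in WT and 0.00269 in Trim33-null EBs). Group means ran from 263 ± 4.7 FPKM in WT activin through 226 ± 21 in Trim33-null activin, 176 ± 1.5 in ESCs and 153 ± 0.11 in WT SB431542 to 140 ± 16 in Trim33-null SB431542 (SD, n = 2). The last pair did not differ beyond their spread.

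Of the 7 members tested, 0 passed for activin against SB431542 in WT EBs, where 0.221% of 11317 genes did (25 genes, limma), and 0 in Trim33-null EBs, where 0.115% did (13 genes). At an unadjusted p under 0.05 the count was 2 of 7 in each genotype, Nodal and Tdgf1, beside 299 of 11317 genes in WT EBs and 237 in Trim33-null EBs. The median log2 difference of the tested members was 0.094 in WT EBs and 0.061 in Trim33-null EBs, beside 0.00 and -0.02 over all genes tested. The other 5 tested members differed between treatments by -0.44 to 0.13 in WT and by -0.24 to 0.10 in Trim33-null EBs. With no untreated group, each difference is between the ligand and the inhibitor.

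The difference in activin response between the genotypes was tested itself. Its value, Trim33-null minus WT on the log2 scale, was -0.07 ± 0.28 (SE) for Nodal, with a 95% interval from -0.74 to 0.60, and -0.09 ± 0.14 for Tdgf1, with an interval from -0.42 to 0.25. Of the 7 members 0 passed, as did 0 of 11317 genes or 0% (limma), and at an unadjusted p under 0.05 the counts were 0 members and 24 genes.

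**Figure D2:**
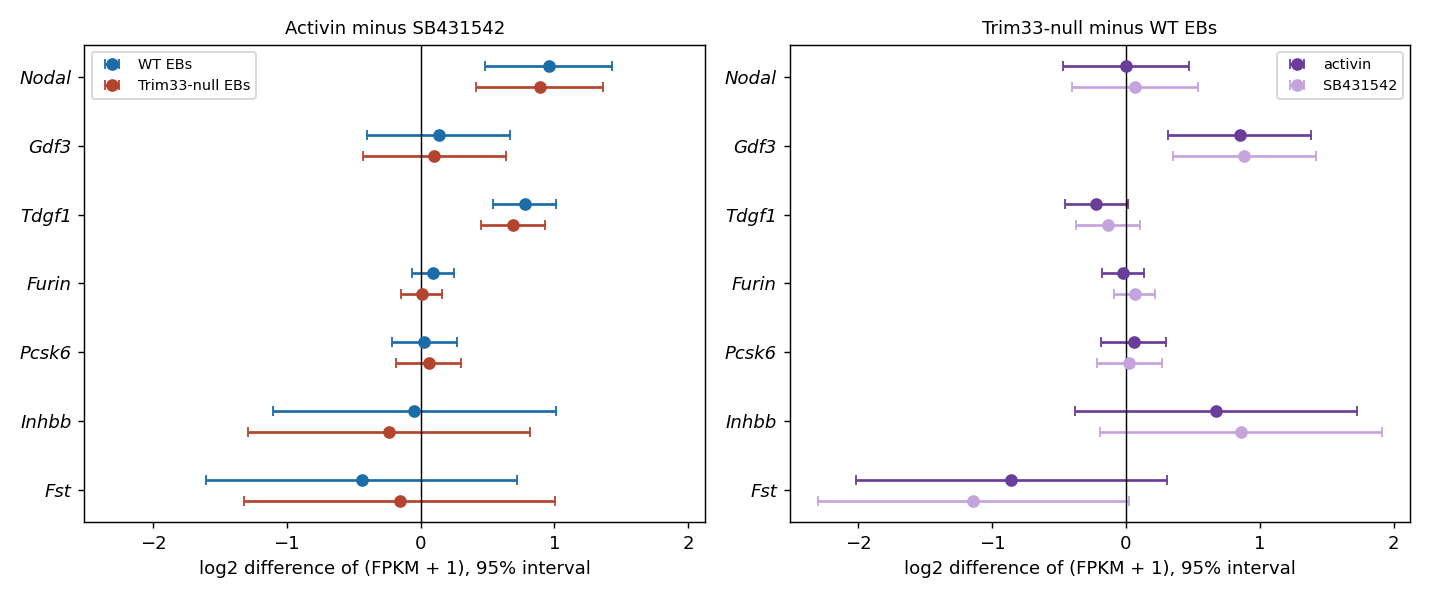
Log2 differences of (FPKM + 1) for the 7 tested members with 95% intervals from limma (horizontal axes), for activin minus SB431542 in each genotype (left) and for Trim33-null minus WT EBs in each treatment (right). Nodal and Tdgf1 lie right of 0 at left, from 0.69 to 0.96, and Gdf3 lies right of 0 at right, at 0.85 and 0.89.

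Gdf3, the Vg1-related ligand gene, was the member whose levels separated the genotypes most evenly across treatments. WT EBs read 12.9 and 13.4 FPKM with activin and 12.4 and 11.5 with SB431542. Trim33-null EBs read 29.1 and 20.8 FPKM with activin and 28.4 and 18.4 with SB431542. All 4 Trim33-null libraries lay above all 4 WT libraries, and within Trim33-null EBs both column I libraries lay above both of column II. Inhbb and Fst also separated the genotypes without overlap, and Tdgf1 did so within each treatment. The share of all genes that separated the genotypes in these ways was not counted. ESCs read 20.9 and 19.9 FPKM, inside the Trim33-null range and above WT EBs.

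The ratio of Trim33-null to WT means of Gdf3 was 1.89 with activin and 1.96 with SB431542. The log2 differences were 0.85 ± 0.22 (SE), with a 95% interval from 0.32 to 1.39, and 0.89 ± 0.22, with an interval from 0.35 to 1.42. Neither passed in limma (adjusted p = 0.0663 and 0.0619), and over the alternatives adjusted p ran from 0.0102 to 0.283 and from 0.00775 to 0.267. With column II of the Trim33-null EBs left out, which leaves 1 Trim33-null library a treatment and takes the spread from WT EBs alone, the differences were 1.08 and 1.18. With column I left out they were 0.62 and 0.59. The lowest adjusted p values of Gdf3 came from such fits. In the same comparisons 3 of 8 pluripotent markers were higher and 3 of 6 primed epiblast markers lower in Trim33-null EBs, under each treatment. Their part in the level of Gdf3 was not tested.

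Gdf1, which encodes the Vg1-related partner of Nodal in left-right patterning, was listed at 0 in all 10 libraries. It shares its transcript with Cers1, a ceramide synthase gene, and RefSeq lists a shared start for both. Cers1 read 0.230 to 0.422 FPKM in EBs and 0.0624 to 0.0944 in ESCs. How fragments of the shared transcript were assigned is not given in the sources used here, so the 0 is a listed value and not evidence that Gdf1 was silent.

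Inhba, the subunit gene of the added ligand, was the lowest member with a value above 0 in every group. It read 0.191 and 0.304 FPKM in WT activin I and II and 0.119 and 0.265 in WT SB431542. It read 0.269 and 0.512 in Trim33-null activin, 0.175 and 0.744 in Trim33-null SB431542 and 0.050 and 0.023 in ESCs. WT and Trim33-null libraries overlapped with SB431542 and with activin, and both ESC libraries lay below all 8 EB libraries. Inhba did not reach 1 FPKM in any library and was not tested. In every EB group column II was above column I.

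Inhbb, the subunit of activin B, was high in ESCs and split by column in Trim33-null EBs. It read 3.03 and 3.01 FPKM in ESCs and 0.254 to 0.506 in the 4 WT EB libraries. In Trim33-null EBs column I read 0.579 with activin and 0.681 with SB431542, while column II read 1.97 and 2.86. All 4 Trim33-null libraries lay above all 4 WT EB libraries. The Trim33-null mean was 3.51 times the WT mean with activin and 4.36 times with SB431542. In the EB fit Inhbb passed the filter only through its values in Trim33-null column II, so its difference between genotypes is given as a description.

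Fst, which encodes the activin-binding protein follistatin, was abundant in EBs and near 0 in ESCs. WT EBs read 22.4 and 20.9 FPKM with activin and 36.8 and 24.0 with SB431542. Trim33-null EBs read 16.3 and 8.07 FPKM with activin and 20.8 and 7.93 with SB431542. ESCs read 0.911 and 0.722 FPKM. The Trim33-null libraries lay below the WT libraries of the same treatment, and those of column II lay lowest among EBs.

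The ratio of Trim33-null to WT means of Fst was 0.562 with activin and 0.473 with SB431542. The log2 differences were -0.86 ± 0.48 (SE) and -1.14 ± 0.48 and did not pass (limma adjusted p = 0.293 and 0.184). Leaving out a column of the Trim33-null EBs leaves 1 Trim33-null library a treatment, so only the differences are given. They were -1.32 and -1.78 without column I, and -0.39 and -0.49 without column II. Fst was lower with activin than with SB431542 in both WT libraries, but the difference of -0.44 ± 0.48 had an interval from -1.60 to 0.72.

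Over the 7 tested members, 0 passed for genotype under activin, where 8.09% of 11317 genes did (915 genes, limma), and 0 under SB431542, where 8.08% did (914 genes). At an unadjusted p under 0.05 the count was 1 of 7 under each treatment, Gdf3, beside 3206 of 11317 genes under activin and 3183 under SB431542. The median log2 difference of the members was 0.00 under activin and 0.07 under SB431542, beside -0.03 and -0.02 over all genes. With 1 library left out, the counts of genes in both comparisons fell most when a WT library of that treatment was dropped. The Trim33-null columns also differed from each other. Column II had higher fibroblast-type markers, with summed levels of 28.3 and 34.9 FPKM against 11.7 and 12.3 in column I and 7.03 to 10.9 in WT EBs. Of these 8 genes, 7 reached a mean of 1 FPKM in Trim33-null EBs and none was at 0. Trophoblast markers summed to 83.6 and 93.4 FPKM in column II, 64.1 and 56.8 in column I, 35.9 to 49.9 in WT EBs and 67.0 to 68.8 in ESCs. Most of this sum was Krt8 and Krt18, with means of 36.1 and 27.4 FPKM in Trim33-null activin. Cdx2, Elf5, Gata3 and Hand1 had group means below 1 FPKM throughout. Tfap2c and Ascl2, the rest of the list, had means of 6.74 and 1.75 FPKM in Trim33-null activin. Their means were 4.34 and 0.648 FPKM in WT activin and 5.62 and 1.01 in ESCs. The sum alone does not show trophoblast cells, and their presence was not tested. The part of these marker genes, or of any cells behind them, in the levels of Gdf3, Inhbb, Inhba and Fst was not tested.

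Neither convertase gene passed in any comparison among EBs. Furin, the general convertase of the secretory pathway, read 6.85 and 7.55 FPKM in WT activin, 6.66 and 6.69 in WT SB431542, 6.97 and 7.20 in Trim33-null activin and 7.17 and 6.90 in Trim33-null SB431542. Pcsk6, a convertase that acts at the cell surface and in the matrix, read 1.32 to 1.78 FPKM in the 8 EB libraries, with all 4 EB groups overlapping. The 95% intervals for activin minus SB431542 were -0.06 to 0.25 on the log2 scale for Furin and -0.21 to 0.27 for Pcsk6 in WT, and -0.15 to 0.16 and -0.18 to 0.30 in Trim33-null EBs. For Trim33-null minus WT EBs they were -0.17 to 0.14 and -0.18 to 0.30 with activin, and -0.09 to 0.22 and -0.22 to 0.27 with SB431542.

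Between EBs and ESCs the convertases changed in opposite directions. Furin read 4.36 and 4.53 FPKM in ESCs, below all EB libraries, and Pcsk6 read 3.82 and 3.41, above all EB libraries. Furin rose by 0.59 ± 0.062 (SE) in WT EBs with activin against ESCs with activin, and Pcsk6 fell by 0.88 ± 0.097 on the log2 scale (limma adjusted p = 0.000165 and 0.000211). The FPKM of Furin was 1.14 and 1.33 times that of Pcsk6 within the ESC libraries, and 4.04 to 5.43 times within the 8 EB libraries.

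Of the 7 members tested in WT EBs against E14 ESCs, both with activin, 7 passed, where 56.9% of 11661 genes did (6634 genes, limma), so a call here was common. Fst reached 1 FPKM only in EBs, and Inhbb only in ESCs and Trim33-null column II, so both entered the fit through the groups where they were high. Both are in the count of 7, but their differences are given as a description. Nodal rose by 1.23 ± 0.18 (SE) on the log2 scale and Tdgf1 by 0.58 ± 0.091 (limma adjusted p = 0.000815 and 0.00119). Gdf3 fell by 0.59 ± 0.20 (limma adjusted p = 0.0377), and Inhbb was 1.57 lower, as a description. The ratio of means was 2.43 for Nodal, 1.5 for Tdgf1 and 26.5 for Fst, and ESCs had 1.55 times the Gdf3 and 8.32 times the Inhbb of WT EBs. Cell line and culture changed together with cell state here and cannot be told apart. The call for Gdf3 was lost without a low-value filter (limma adjusted p = 0.0687). It was also lost when either library of WT activin, WT SB431542 or ESCs was left out. Inhbb dropped out of the count of 7 without WT activin I or either ESC library.

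**Figure D3:**
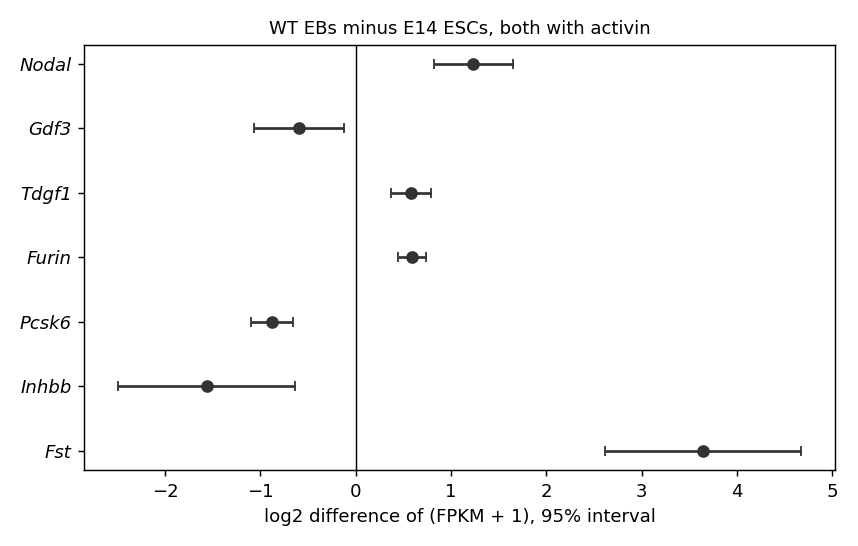
Log2 differences of (FPKM + 1), WT EBs minus E14 ESCs, both with activin, for the 7 tested members with 95% intervals from limma. Fst at 3.64, Nodal at 1.23, Furin at 0.59 and Tdgf1 at 0.58 lie right of 0, and Gdf3 at -0.59, Pcsk6 at -0.88 and Inhbb at -1.57 lie left of it.

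Scaling bears on this comparison: with median-of-ratios scaling the median log2 difference over all genes was -0.07 in place of 0.04, and 2685 genes were higher and 4118 lower where 3557 and 3077 were with the values as deposited. The 7 members kept their directions and passed, with 1.10 for Nodal, 0.44 for Tdgf1, 0.47 for Furin, 3.56 for Fst, -0.73 for Gdf3, -0.98 for Pcsk6 and -1.66 for Inhbb.

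The balance of ligand and antagonist transcripts within a library was set out from FPKM ratios, which are described and not tested. Lefty1 and Lefty2, the secreted Nodal inhibitors, together had 5.5 and 4.6 times the FPKM of Nodal in WT activin I and II, and 0.617 and 1.02 times in WT SB431542. In Trim33-null EBs they had 10.7 and 11.7 times with activin and 2.31 and 2.43 times with SB431542. ESCs had 8.02 and 7.81 times. Within each treatment the ratio was higher in both Trim33-null libraries than in both WT libraries, while Nodal itself overlapped.

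Follistatin and activin subunit transcripts were compared in the same way. The ratio of Fst to the summed FPKM of Inhba and Inhbb was 50.3 and 27 in WT activin and 86.5 and 31.1 in WT SB431542. In Trim33-null EBs it was 19.2 and 24.4 in column I and 3.26 and 2.2 in column II. In ESCs it was 0.296 and 0.238, the only libraries in which the subunit genes together exceeded Fst.

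**Figure D4:**
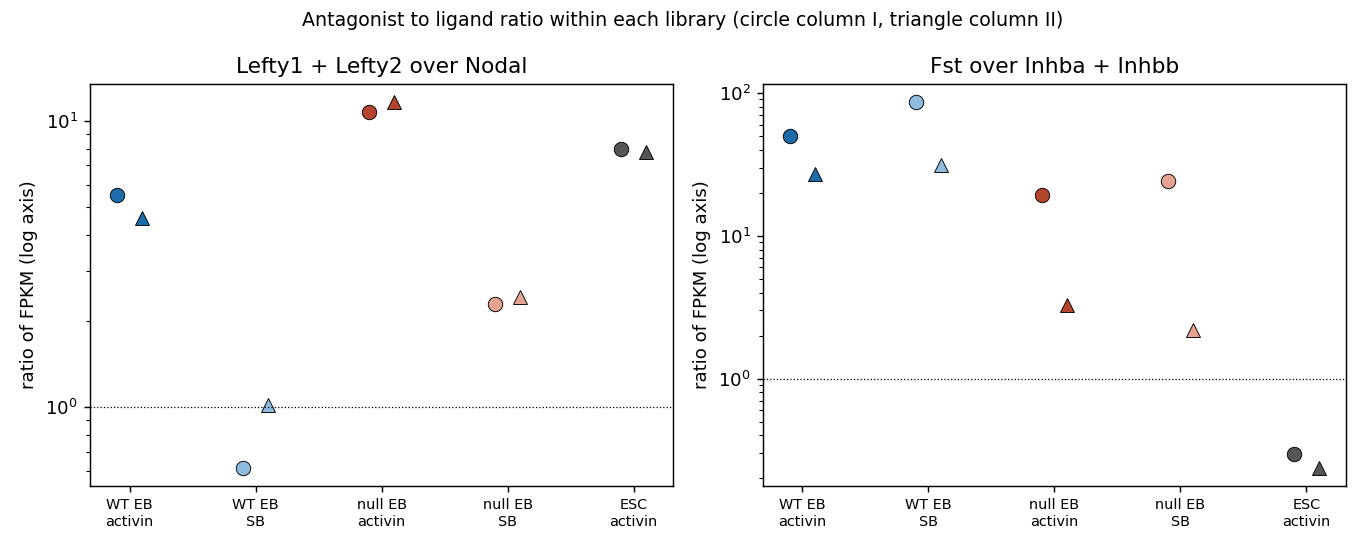
Ratio of FPKM within each library on log axes, for Lefty1 plus Lefty2 over Nodal (left) and Fst over Inhba plus Inhbb (right); circles are column I, triangles column II, and dotted lines mark a ratio of 1. The left ratio ran from 0.617 in WT SB431542 I to 11.7 in Trim33-null activin II, and the right ratio from 0.238 in an ESC library to 86.5 in WT SB431542 I.

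Among the other secreted antagonists, Lefty1 and Lefty2 rose with activin in both genotypes, 2 of the 4 tested of 10 listed. Lefty1 rose by 4.15 ± 0.11 (SE) and Lefty2 by 2.15 ± 0.17 in WT EBs (limma adjusted p = 0.000127 and 0.0113). For activin in WT EBs, Bambi, a decoy receptor, had 0.21 and Fstl1, a follistatin relative, 0.00, and neither passed. Cer1, Dand5, Inha, Nog, Chrd and Fstl3 had group means below 1 FPKM throughout, which leaves Lefty1 and Lefty2. Both were higher in Trim33-null than in WT EBs under each treatment. With activin, Lefty1 was 1.18 ± 0.11 and Lefty2 0.99 ± 0.17 higher (limma adjusted p = 0.00996 and 0.0246). Under SB431542, Lefty1 was 1.74 ± 0.11 and Lefty2 1.30 ± 0.17 higher (limma adjusted p = 0.0042 and 0.0127). Of 6 other co-receptor and modulator genes tested, 0 passed for activin in either genotype, and 1 was lower in Trim33-null EBs under each treatment, Rgma, a BMP co-receptor gene, by -0.72 and -0.80 (limma adjusted p = 0.0246 and 0.0173). Cfc1, the co-receptor gene related to Tdgf1, had group means of 0.0323 to 0.163 FPKM.

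Receptors and transducers gave a further frame for the ligands. Of 7 type I and II receptor genes tested, 0 passed for activin against SB431542 in either genotype by limma. Acvr2b, a type II receptor gene, was lower in Trim33-null EBs by -0.54 ± 0.11 (SE) with activin and -0.56 ± 0.11 with SB431542 (limma adjusted p = 0.0368 and 0.0326), and Acvr1b, which encodes the type I receptor of activin, by -0.32 ± 0.061 with activin (adjusted p = 0.032). Foxh1, of the 4 genes of SMADs and their partner, was lower by -0.31 ± 0.067 and -0.33 ± 0.067 (adjusted p = 0.0454 and 0.0378). Smad7, the inhibitory SMAD, rose with activin by 2.54 ± 0.10 in WT and 2.37 ± 0.10 in Trim33-null EBs (limma adjusted p = 0.00079 and 0.00122), 1 of 10 intracellular inhibitors in each. Pkdcc, from the list of Nodal and activin target genes, rose with activin by 1.24 ± 0.10 in WT EBs and 0.995 ± 0.10 in Trim33-null EBs (limma adjusted p = 0.0118 and 0.0373).

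Genes whose levels most resembled those of a member were found by the Pearson correlation of log2(FPKM + 1) among 5409 or 5410 genes with a mean of at least 5 FPKM. The libraries share their groups, so these values describe shared grouping and carry no test. Over the 8 EB libraries the nearest to Nodal were Mllt6 (0.977), Myc (0.949) and Cdk9 (0.946). The nearest to Tdgf1 were Irf1 (0.98), Sox13 (0.973) and Skil (0.964). Gdf3 was nearest to 9630033F20Rik (0.998), Tubb2b (0.996) and Timm17b (0.995), and Inhbb to B2m (0.995), Tsc22d1 (0.995) and Riok3 (0.994). Fst was nearest to Wasf1 (0.982), Nelfcd (0.98) and Ina (0.974), Furin to Plekhj1 (0.96), Tmem189 (0.92) and Basp1 (0.912), and Pcsk6 to Sec62 (0.983), Selenof (0.977) and Nenf (0.976). The table holds the symbol of Selenof as a calendar date, and its name was taken from its gene ID.

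With the ESCs included, so over 10 libraries, the nearest genes changed. They were Zfp219 (0.933), Pkdcc (0.92) and Plekhf2 (0.897) for Nodal, and Hes1 (0.899), Ubr7 (0.898) and Phf23 (0.888) for Tdgf1. They were Ndufa9 (0.979), Gm12002 (0.969) and Rps4l (0.967) for Gdf3, and Hmgn2, Brip1os and Pak1 (each 0.988) for Fst. For Inhbb they were Cul4b (0.988), Riok3 (0.987) and Dctn3 (0.984), for Furin Tmem189 (0.997), Slmo1 (0.991) and Rab1b (0.99), and for Pcsk6 Socs3 (0.988), Eif2d (0.988) and Picalm (0.986). Riok3 for Inhbb and Tmem189 for Furin were named over both sets of libraries.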

How the data were processed

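Gene levels are FPKM values from 1 table deposited by the authors, which has 10 columns, 1 per library. CASAVA 1.8, Bowtie2 2.2.2, STAR 2.4.0, Cufflinks 2.2.1 and mm9 are named, with no role for any, per the submitters' processing notes; for annotation, read filters and strandedness, the sources used here give nothing. ATAC-seq and ChIP-seq samples (8 and 5) were not analysed here. Of 29145 rows, 113 with a repeated symbol were left out, keeping the one with the highest mean. The numbers 1 and 4 in the Trim33-null titles have no known match among columns I and II, so columns name these libraries.

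The table holds no counts. Relative depth was estimated from the commonest ratio between values under 0.06 FPKM in each pair of libraries, taking ratios within 0.02 (log2) as equal; it held 4.74% to 14.5% of such values, so depths are rough and no count test was run.

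Tests used limma 3.58.1 in R 4.3.3 with an intensity trend, on genes reaching 1 FPKM in 2 or more fitted libraries. They were also run on simulated data with independent libraries. That run cannot give their error rate where libraries of the same numeral vary together. Alternatives were a pseudocount of 0.1, no filter, median-of-ratios scaling, fewer libraries, a replicate block and leaving out each library. The members and lists were chosen with earlier results of these data known. Genes outside the members were named where they passed in some comparison (at most 4 a list, by adjusted p) or led a likeness ranking, with Lefty1, Lefty2, Smad7 and Cfc1 in any case. Genes named only for being low or for context (Bambi, Fstl1, Cer1, Dand5, Inha, Nog, Chrd, Fstl3, Cers1, Krt8, Krt18, Cdx2, Elf5, Gata3, Hand1, Tfap2c and Ascl2), and Acvr2b, were added after their values were seen. Some genes of the lists are not reported here.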

Additional observations from a re-analysis of the deposited data

How the results depend on the processing

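Over the alternatives, 510 of 585 values of single members kept their direction and their side of the threshold. Of the others 46 changed sign, 19 passed where the value in the report did not, and 10 no longer passed, all 10 of them for Gdf3 or Inhbb in EBs against ESCs. No sign changed for a member that had passed. Of the members, 6 passed in EBs against ESCs without a filter, and 5 to 7 with 1 library left out. Depth is known only as an estimate, which limits values under about 1 FPKM such as those of Inhba and Inhbb.

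The count of 25 genes for activin against SB431542 in WT EBs was 15 without a filter, 38 in a fit to those 4 libraries and 4 to 21 with 1 library left out, lowest without either WT activin library or WT SB431542 II (5 without WT SB431542 I). The 13 genes of Trim33-null EBs became 6, 0 (131 at an unadjusted p under 0.05, limma) and 4 to 8, and 4 or 5 without both Trim33-null libraries of column I or II. The 915 genes for genotype under activin became 50 in a fit to those 4 libraries, 3355 without column I and 8 to 956 with 1 library left out, being 8 when WT activin I was left out, 25 for WT activin II, 300 for WT SB431542 I, 298 for WT SB431542 II, 249 for Trim33-null activin I and 172 for Trim33-null activin II. The 914 under SB431542 became 279, 3380 and 3 to 935, being 14 when WT SB431542 I was left out, 3 for WT SB431542 II, 98 without Trim33-null SB431542 II and 480 without either WT activin library. The cause was not tested. Leaving out a column of Trim33-null libraries was chosen after seeing the data; it leaves 1 Trim33-null library a treatment, assumed to vary like the WT libraries.

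The replicate block used the column numeral within genotype. Deviations of same-numeral libraries from their group means correlated across treatments at 0.456 in WT and 0.907 in Trim33-null EBs, with 2 pairs each, which is a hint from the data and not the design. With the replicate block 123 genes passed in WT EBs and 83 in Trim33-null EBs, and 1 member, Tdgf1, in each (limma adjusted p = 0.00119 and 0.00269). For the difference in response that fixed block called 0 genes (limma; 277 at an unadjusted p under 0.05). As a random block it called 1 member, Gdf3, for genotype under each treatment (adjusted p = 0.0377 and 0.0319).

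The members called were otherwise 1 (Tdgf1) in the fit to the 4 WT libraries, where 38 of 10752 genes passed. For genotype under either treatment they were 0 to 1 with 1 library left out. Fits without column I or II hold 1 Trim33-null library a treatment, so their member counts are not given.

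Signs changed for these log2 differences. With both column I libraries left out, Fst for activin in Trim33-null EBs was 0.024, Nodal for genotype was -0.017 under activin and -0.14 under SB431542, Furin for genotype under activin was 0.00086, and the response difference was 0.12 for Nodal and 0.033 for Gdf3. With column II left out, Furin for activin in Trim33-null EBs was -0.036, and Pcsk6 for genotype was -0.032 under activin and -0.084 under SB431542. With median-of-ratios scaling Furin for genotype under activin was 0.00081. With 1 library left out, the ranges in WT EBs for activin were -0.16 to 0.069 for Inhbb and -0.0091 to 0.067 for Pcsk6. In Trim33-null EBs they were -0.20 to 0.40 for Gdf3, -0.80 to 0.49 for Fst, -0.84 to 0.22 for Inhbb, -0.016 to 0.033 for Furin and -0.049 to 0.17 for Pcsk6. For genotype under activin they were -0.097 to 0.10 for Nodal, -0.082 to 0.042 for Furin and -0.032 to 0.15 for Pcsk6, and under SB431542 -0.17 to 0.31 for Nodal and -0.084 to 0.14 for Pcsk6. For the response difference they were -0.31 to 0.17 for Nodal, -0.20 to 0.027 for Tdgf1, -0.33 to 0.27 for Gdf3, -0.36 to 0.93 for Fst, -0.79 to 0.27 for Inhbb and -0.078 to 0.14 for Pcsk6. Inhbb could not be fitted among EBs where leaving out a Trim33-null library of column II took it below the filter.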

Other observations

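Ligands of the family outside the Nodal and activin branch, and a convertase other than Furin and Pcsk6, are described here. Of 6 other ligand genes tested, of 23 listed, 0 passed for activin against SB431542 in either genotype by limma. Bmp4, a ligand of the BMP branch, stood at 0.994 ± 0.10 FPKM in WT activin, 1.69 ± 0.17 in Trim33-null activin and 5.27 ± 0.31 in ESCs (SD, n = 2). In the SB431542 groups it stood at 0.828 ± 0.098 in WT and 1.87 ± 0.042 in Trim33-null EBs. Fewer than 2 libraries of any WT EB group reached 1 FPKM, so Bmp4 entered the fits through the other groups and these values are a description.

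Pcsk2, a convertase of neuroendocrine cells, had 1.00 ± 0.052 FPKM in WT activin, 1.02 ± 0.070 in WT SB431542, 0.416 ± 0.048 in Trim33-null activin, 0.380 ± 0.0061 in Trim33-null SB431542 and 0.156 ± 0.020 in ESCs (SD, n = 2). It reached 1 FPKM in 1 library of each WT EB group and in no other, so it entered the fits only through WT EBs and its values are likewise a description.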
